A study of Mus musculus with 82 samples.

Results

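The chromatin of 34 imprinted genes was examined in fibroblasts undergoing reprogramming. The genes were named as a list and found by symbol among 49943 genes of any kind on chromosomes 1 to 19, X and Y in the RefSeq gene table of the mouse build GRCm38.p6. They comprise 30 protein-coding genes and 4 long noncoding RNA genes (H19, Kcnq1ot1, Meg3 and Airn), and fall into 17 clusters, of which 7 hold several members and 10 hold 1. A peak was taken for a gene when it overlapped the gene or had its centre within 20 kb of either annotated end, and was counted once per cluster. A gene-end peak is one that overlaps the 1 kb on either side of an annotated end.

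The series has 82 samples of mouse cells. Those analysed here are the 8 ATAC-seq samples, in which transposase insertion marks accessible DNA. OG2 mouse embryonic fibroblasts received the reprogramming factors Oct4, Sox2, Klf4 and c-Myc (OSKM) by retrovirus, and all 4 groups share this treatment. A second retrovirus carried either Flag, read here as the control, or RNase H1(D209N), called D209N below, and cells were taken at day 3 or day 7 with 2 replicates per group in the labels. RNase H1 cleaves the RNA strand of RNA:DNA hybrids, and D209N is a substitution in its catalytic domain. Infected cells are a mixture, and the labels name 2 media without saying which was used for which sample.

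Genomic imprinting is the expression of a gene from the chromosome of 1 parent only. It rests on DNA methylation at CpG sites that is set in the egg or sperm at a control region and is kept by the zinc finger protein ZFP57 and its partner TRIM28 while the rest of the genome is reprogrammed. Many imprinted genes act on fetal growth, such as the growth factor gene Igf2 and its clearance receptor gene Igf2r. Others encode retrotransposon-derived proteins (Peg10, Rtl1) or untranslated RNAs that silence neighbours on the same chromosome (Airn, Kcnq1ot1). These data do not separate the parental chromosomes, so a peak open on 1 chromosome and a peak open on both cannot be told apart.

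Promoter sequences are shown for members whose gene-end peak was in some lists and not in others, since CpG methylation is the substrate of imprinting. Each is the RefSeq window from 250 bases before to 50 bases after an annotated start in GRCm38.p6, written 5′ to 3′ on the gene's strand, with CpG dinucleotides in capitals. Of the 34 members 27 had an entry, with 42 windows. The other members are H19, Sgce, Peg10, Kcnq1, Cdkn1c, Rtl1 and Impact. The first 6 follow a fixed rule (arm differences before day differences, in alphabetical order), and Nap1l5 and Zrsr1 were added after their values were seen.
Magel2 (chr7:62376729-62377028, plus strand): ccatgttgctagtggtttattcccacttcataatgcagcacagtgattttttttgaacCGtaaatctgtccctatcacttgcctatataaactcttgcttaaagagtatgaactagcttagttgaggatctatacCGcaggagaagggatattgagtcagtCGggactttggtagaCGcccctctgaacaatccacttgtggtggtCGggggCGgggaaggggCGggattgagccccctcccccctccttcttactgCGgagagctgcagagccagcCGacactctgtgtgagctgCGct
Plagl1 (chr10:13090582-13090881, plus strand): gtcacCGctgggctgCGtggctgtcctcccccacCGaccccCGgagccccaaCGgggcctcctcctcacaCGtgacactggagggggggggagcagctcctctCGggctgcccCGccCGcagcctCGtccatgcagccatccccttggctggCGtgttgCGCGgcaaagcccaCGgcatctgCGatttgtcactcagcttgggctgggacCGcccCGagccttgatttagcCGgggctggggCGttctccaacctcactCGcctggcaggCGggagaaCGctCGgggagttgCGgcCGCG
Rasgrf1 (chr9:89909525-89909824, plus strand): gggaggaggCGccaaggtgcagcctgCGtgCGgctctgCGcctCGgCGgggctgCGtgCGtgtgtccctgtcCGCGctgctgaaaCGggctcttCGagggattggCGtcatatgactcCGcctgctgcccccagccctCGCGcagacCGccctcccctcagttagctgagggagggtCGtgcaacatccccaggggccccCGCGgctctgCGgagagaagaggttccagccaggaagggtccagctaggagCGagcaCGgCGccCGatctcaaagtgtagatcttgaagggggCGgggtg
Slc22a3 (chr17:12507655-12507954, minus strand): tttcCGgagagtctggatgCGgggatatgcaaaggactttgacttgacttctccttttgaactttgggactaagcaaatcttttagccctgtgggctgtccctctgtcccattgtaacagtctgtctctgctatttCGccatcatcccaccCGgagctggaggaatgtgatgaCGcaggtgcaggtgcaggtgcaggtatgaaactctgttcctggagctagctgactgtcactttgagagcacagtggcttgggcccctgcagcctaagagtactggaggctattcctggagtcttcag
Slc38a4 (chr15:97055907-97056206, minus strand): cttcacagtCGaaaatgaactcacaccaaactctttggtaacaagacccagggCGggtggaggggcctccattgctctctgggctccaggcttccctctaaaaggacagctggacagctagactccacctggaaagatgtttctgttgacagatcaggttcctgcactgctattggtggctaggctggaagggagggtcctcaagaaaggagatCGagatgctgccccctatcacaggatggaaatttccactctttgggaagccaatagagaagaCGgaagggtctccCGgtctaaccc
Mkrn3 (chr7:62420104-62420403, minus strand): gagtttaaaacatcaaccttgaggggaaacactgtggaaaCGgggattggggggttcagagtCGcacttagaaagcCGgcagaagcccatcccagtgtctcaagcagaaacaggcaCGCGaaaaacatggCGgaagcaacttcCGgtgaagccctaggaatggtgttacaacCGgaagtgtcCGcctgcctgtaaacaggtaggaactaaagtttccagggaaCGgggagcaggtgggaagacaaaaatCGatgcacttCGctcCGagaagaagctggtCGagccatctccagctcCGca
Nap1l5 (chr6:58907077-58907376, minus strand): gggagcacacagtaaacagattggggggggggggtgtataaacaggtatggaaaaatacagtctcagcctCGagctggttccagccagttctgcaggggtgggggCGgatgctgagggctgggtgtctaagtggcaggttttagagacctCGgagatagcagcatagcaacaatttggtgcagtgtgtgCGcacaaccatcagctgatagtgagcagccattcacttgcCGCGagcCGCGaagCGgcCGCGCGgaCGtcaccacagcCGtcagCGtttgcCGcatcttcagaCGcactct
Zrsr1 (chr11:22971755-22972054, plus strand): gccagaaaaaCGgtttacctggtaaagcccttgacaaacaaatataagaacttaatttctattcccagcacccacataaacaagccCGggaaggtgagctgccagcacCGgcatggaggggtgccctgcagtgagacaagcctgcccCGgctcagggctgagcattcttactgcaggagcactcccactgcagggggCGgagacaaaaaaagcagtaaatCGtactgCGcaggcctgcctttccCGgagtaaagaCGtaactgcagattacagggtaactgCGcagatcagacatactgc

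The CpG count in these windows ranged from 5 in Slc22a3 and Slc38a4 to 26 in Plagl1 and Rasgrf1. Between these lay Magel2 and Zrsr1 with 10 each, Mkrn3 with 15 and Nap1l5 with 17. The observed over expected CpG ratio, which corrects for base composition, was 0.24 for Slc38a4, 0.25 for Slc22a3, 0.47 for Zrsr1 and 0.51 for Magel2. It was 0.70 for Nap1l5 and Plagl1, 0.71 for Mkrn3 and 0.75 for Rasgrf1. A gene-end peak need not overlap the printed window. The windows of Magel2, Slc22a3 and Slc38a4 were overlapped by a peak in no list, and those of Mkrn3 and Rasgrf1 in D209N day 7 only. Those of Nap1l5 and Zrsr1 were overlapped in both day 7 lists, and that of Plagl1 in every list but Flag day 3.

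Each group has 1 deposited list of intervals with no score or read count. Every interval is named for replicate 1 of its group and none for replicate 2, and whether a list rests on 1 replicate or both is not stated. No value therefore has a replicate error, no test between conditions was possible, and depth is unknown. The lists held 36375 (Flag day 3), 42439 (Flag day 7), 29189 (D209N day 3) and 40452 peaks (D209N day 7). A gene without a listed peak may be accessible below the authors' threshold. Among markers fixed as lists, gene-end peaks stood at 4 of 6 fibroblast genes in both Flag lists and 5 in both D209N lists. Of 5 pluripotency genes 3 and 2 had the peak in Flag at day 3 and day 7, and 1 and 3 in D209N. Each list held it at 2 of 4 blood and macrophage genes and 1 of 3 endothelial genes. The shares of protein-coding genes were 55.9% and 51.7% at day 3 and 61.5% and 60.4% at day 7, Flag first. Those of all genes were 32.4% and 29.5%, and 36.2% and 35.5%. Sets this small do not show the mix of cells, and its part in the results was not tested.

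Imprinted genes had gene-end peaks at 14 of 34 members in Flag day 3 (41.2%, Wilson 95% interval 26.4 to 57.8), against 32.4% of all genes and 55.9% of protein-coding genes. In D209N day 3 they stood at 10 members (29.4%, 16.8 to 46.2), against 29.5% and 51.7%. In Flag day 7 they stood at 20 members (58.8%, 42.2 to 73.6), against 36.2% and 61.5%, and in D209N day 7 at 19 members (55.9%, 39.5 to 71.1), against 35.5% and 60.4%. In the full lists both day 7 shares thus lay near that of protein-coding genes. The day 3 shares lay under it, and that of D209N day 3 was near the share of all genes. With only the widest 29189 peaks of each list, 15 of 34 members had a gene-end peak in Flag day 7 and 16 in D209N day 7. These numbers lay under the protein-coding shares of that setting, 57.9% and 57.6%. The setting drops narrow peaks, and locus peaks are narrower than the lists. With annotated starts in place of gene ends, 12 members had a peak in Flag day 3 and 11 in D209N day 3. Of the 34 members 27 had an annotated start, and no share over all genes was taken for starts. The Wilson intervals cover counting error only, members are not replicates, and neighbouring members share peaks. Members with no peak within 20 kb numbered 9 in Flag day 3, 5 in Flag day 7, 12 in D209N day 3 and 6 in D209N day 7, or 26.5%, 14.7%, 35.3% and 17.6%. The shares of protein-coding genes were 23.5%, 20.6%, 26.8% and 21.1%, and of all genes 39.0%, 35.7%, 43.4% and 36.2%. Gene length bears on these counts, and the members' median was 28.7 kb against 17.2 kb for protein-coding genes and 5.96 kb for all genes.

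**Figure D1:**
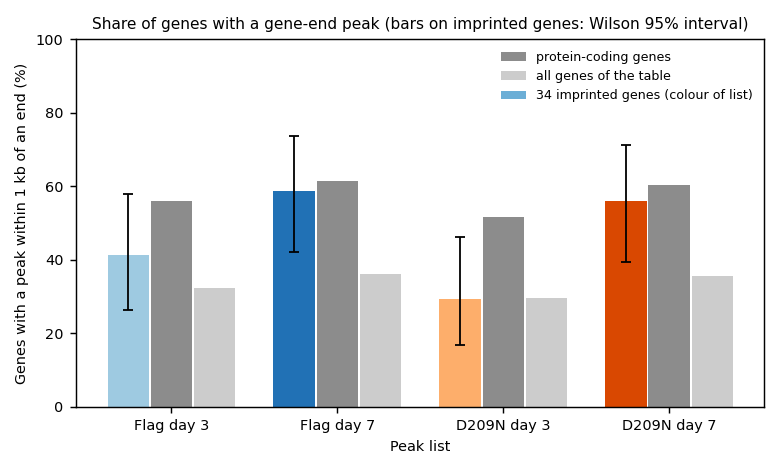
Percentage of genes with a peak within 1 kb of either annotated end in each of the 4 lists. Coloured bars are the 34 imprinted genes with Wilson 95% intervals, dark grey bars protein-coding genes and light grey bars all genes of the table; the imprinted genes stand at 41.2% and 29.4% in the day 3 lists and at 58.8% and 55.9% in the day 7 lists.

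A gene-end peak was present in all 4 lists at 9 members, or 26.5%, against 28.3% of all genes and 50.6% of protein-coding genes. These 9 were Airn, Ascl2, Grb10, Igf2r, Impact, Kcnq1ot1, Ndn, Peg12 and Zim1. Of these, Ascl2 had a peak within 1 kb of its annotated start in the day 7 lists only. The gene-end peak was present in none at 12 members (35.3%, against 61.9% and 37.0%), and differed between lists at 13 members (38.2%, against 9.87% and 12.4%). Of those 12, Gnas, Mest and Snrpn had a peak within 1 kb of an annotated start in all 4 lists and Igf2 in the day 7 lists. Peg3 and Usp29 had one within 2 kb of an end in all 4 lists, and Kcnq1 in D209N day 7. By parental origin, 5 of 22 paternally expressed genes (22.7%) and 4 of 11 maternally expressed genes (36.4%) had the peak in all 4 lists. The shares of all genes and of protein-coding genes were 28.3% and 50.6%. The day 7 lists held the peak at 13 paternally expressed genes in each arm (59.1%, against 61.5% of protein-coding genes in Flag and 60.4% in D209N). The day 3 lists held it at 9 in Flag (40.9%, against 55.9%) and 6 in D209N (27.3%, against 51.7%). For maternally expressed genes the numbers were 5 (45.5%) and 4 (36.4%) at day 3 and 7 (63.6%) and 6 (54.5%) at day 7, Flag first, against the same shares. The shares of all genes were 32.4% and 29.5% at day 3 and 36.2% and 35.5% at day 7, Flag first.

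**Figure D2:**
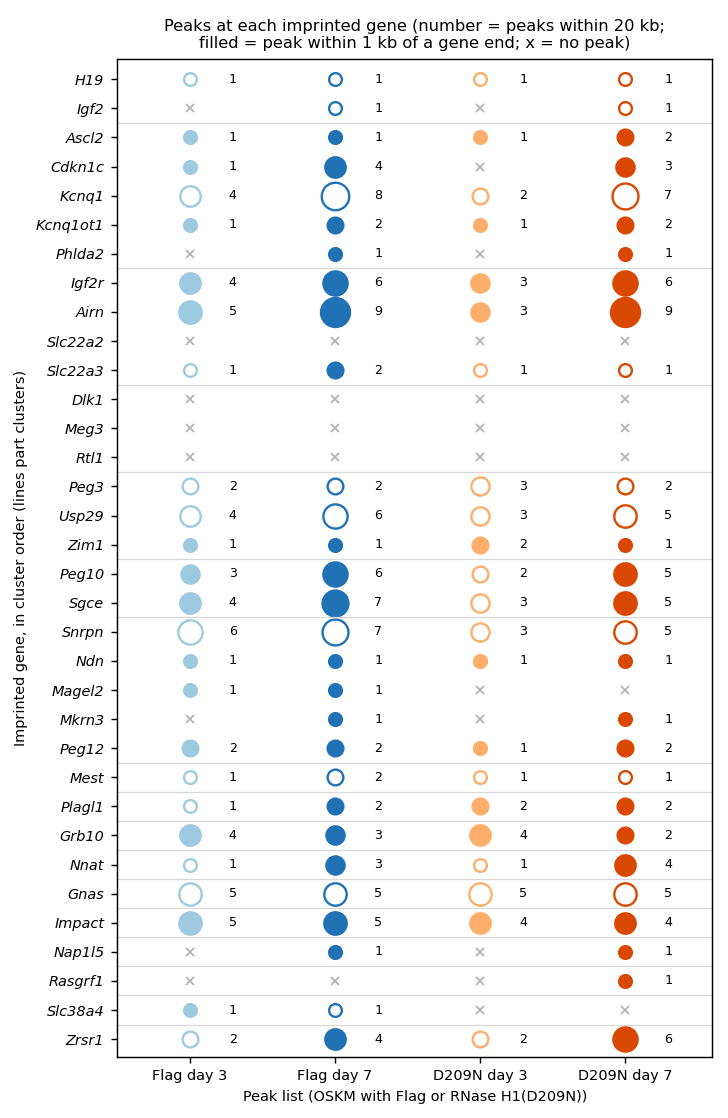
Number of peaks overlapping each imprinted gene or centred within 20 kb of its ends, for each of the 4 lists, with genes in rows and lists in columns. Circle size and the printed number give the peak count, a filled circle marks a peak within 1 kb of a gene end and an x marks no peak; Dlk1, Meg3, Rtl1 and Slc22a2 have an x in every column.

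In the growth factor axis, the ligand gene had a peak in the day 7 lists only and the receptor gene had a gene-end peak in every list. Igf2, which encodes insulin-like growth factor 2, had 0 peaks in both day 3 lists and 1 in both day 7 lists, at chr7:142659282-142659742, inside the gene and 7.3 kb from its nearer end. This Igf2 peak also lay within 1 kb of an end of the gene Igf2os. H19, a noncoding RNA gene that shares enhancers with Igf2, had 1 peak in every list and none within 1 kb of its ends. In Flag day 3 that peak was centred 3.42 kb from H19, and in the other 3 lists a different peak lay 2.38 kb away. The H19 control region, which CTCF binds on the maternal chromosome, is known to lie upstream of H19, and no test placed these peaks in it. Igf2r, which encodes the receptor that removes IGF2, had a gene-end peak in all 4 lists, 180 bp wide at day 3 in Flag against 242 in D209N, and 695 at day 7 against 767. Both day 7 peaks were wider than both day 3 peaks, and only they reached the median width of their list. Grb10, which encodes an adaptor that restrains insulin and IGF signalling, had a gene-end peak of 902, 956, 761 and 905 bp in Flag day 3, Flag day 7, D209N day 3 and D209N day 7. It was the only cluster with fewer peaks at day 7 in both arms, with 4 at day 3 in each arm, and at day 7 with 3 in Flag against 2 in D209N.

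The Igf2r-Airn cluster on chromosome 17 held 6 peaks at day 3 in Flag against 4 in D209N, and 11 at day 7 against 10. Airn, the antisense noncoding RNA that silences Igf2r on the paternal chromosome, begins inside Igf2r, and a peak lay within 1 kb of that end in all 4 lists, between 215 and 471 bp wide. Within Airn and beyond Igf2r, chr17:12810310-12810873 was listed on day 7 in both arms and on day 3 in neither. Slc22a2 and Slc22a3 encode organic cation transporters. Slc22a2 had 0 peaks in every list, and Slc22a3 had 1 in each list and a second, 337 bp wide and 258 bp from its end, in Flag day 7 alone.

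The Kcnq1 cluster on chromosome 7 held 6 peaks at day 3 in Flag against 3 in D209N, and 14 at day 7 against 13, the highest count of the 17 clusters in both day 7 lists. The end of Kcnq1ot1, whose transcription silences the neighbouring genes on the paternal chromosome, had a peak in all 4 lists at chr7:143296197-143296992. Its width was 691 bp at day 3 in Flag against 422 in D209N, and 758 at day 7 against 776, narrowest in D209N day 3. Cdkn1c, which encodes the cyclin-dependent kinase inhibitor p57, had 1 peak at day 3 in Flag against 0 in D209N, and 4 at day 7 against 3. Its gene-end peak was 295, 532 and 566 bp wide in Flag day 3, Flag day 7 and D209N day 7, and in D209N day 3 the nearest peak lay 87569 bp away. Phlda2, a gene that limits placental growth, had 0 peaks at day 3 in both arms and 1 at day 7 in both, 470 bp wide in Flag and 682 in D209N. Kcnq1, a potassium channel gene of 320 kb, had 4, 8, 2 and 7 peaks in Flag day 3, Flag day 7, D209N day 3 and D209N day 7. Ascl2, which encodes a trophoblast transcription factor, had a gene-end peak in all 4 lists, which in D209N day 7 was split into peaks of 677 and 112 bp. At day 3 the peak lay near the end opposite the annotated start, 647 bp away in Flag and 805 bp in D209N. The Ascl2 promoter window was overlapped in no list. With a gene-end window of 0.5 kb the peak stood in Flag day 7 alone.

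**Figure D3:**
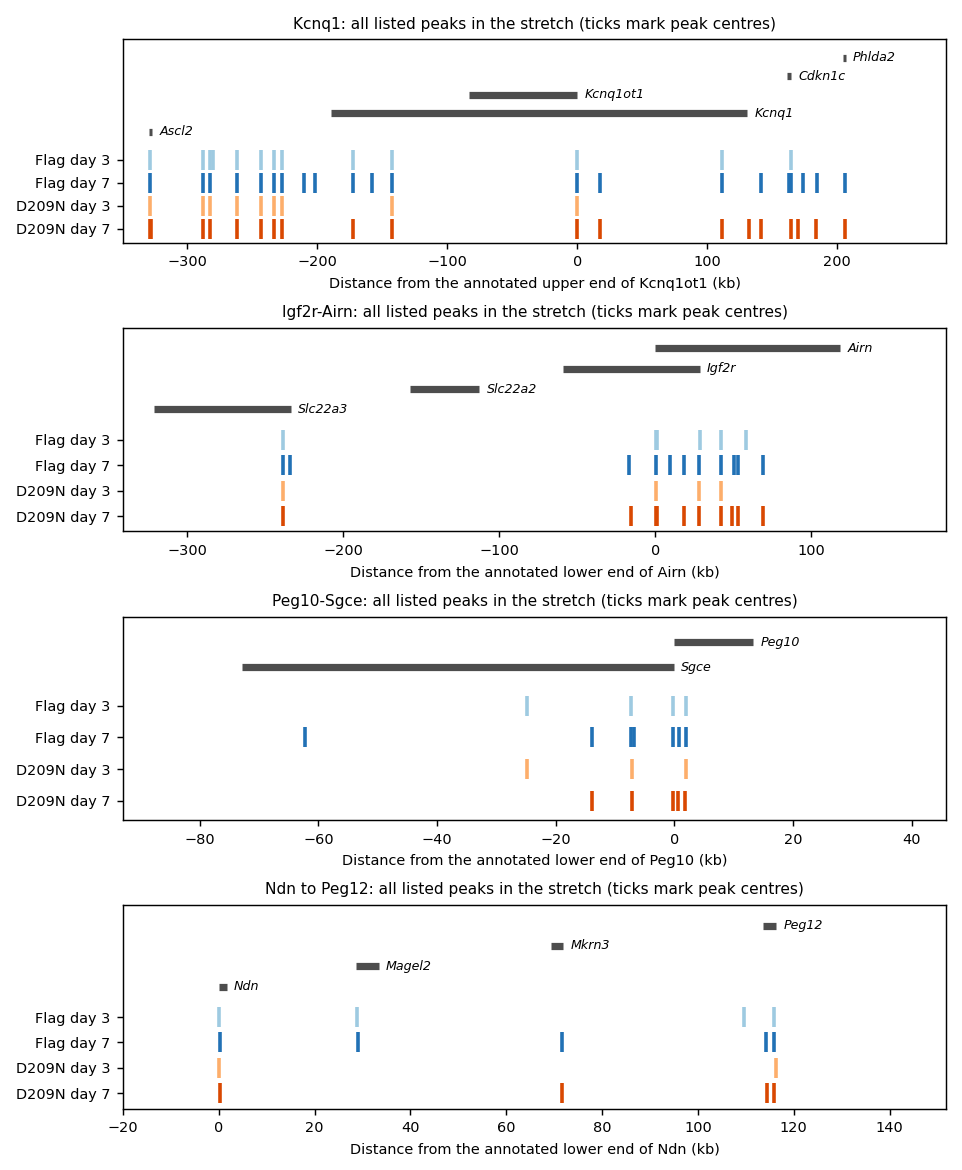
Positions of all listed peaks along 4 imprinted stretches, including peaks over 20 kb from a member; the horizontal axis is the distance in kb from an annotated gene end, grey bars are members and coloured ticks are peak centres in each list. In D209N day 3 no tick stands within 20 kb of Cdkn1c or Phlda2, and in Flag day 3 none stands within 20 kb of Phlda2. In the Ndn to Peg12 stretch the Magel2 tick stands in the Flag rows alone.

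The Peg10-Sgce cluster on chromosome 6 held 4, 7, 3 and 5 peaks in Flag day 3, Flag day 7, D209N day 3 and D209N day 7. Peg10, a retrotransposon-derived gene needed for the placenta, and Sgce, which encodes epsilon-sarcoglycan, begin beside each other. One peak at this point, chr6:4746905-4747318, lay mostly inside the Sgce end. It was listed in Flag day 3 (318 bp), Flag day 7 (370 bp) and D209N day 7 (280 bp) and not in D209N day 3. A second, chr6:4747675-4748258, was listed in both day 7 lists only. Another, centred 1.84 kb inside Peg10, was in all 4 lists, so the locus was not without peaks in D209N day 3.

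The Snrpn-Ndn cluster corresponds to the human Prader-Willi region and held 10, 12, 5 and 9 peaks in Flag day 3, Flag day 7, D209N day 3 and D209N day 7. Snrpn, which encodes a spliceosome protein, had 6, 7, 3 and 5 of them in the same order, none at the outer gene ends. A peak lay within 1 kb of one of its inner starts in all 4 lists. Its annotation spans 468 kb and has 4 annotated starts, so its peak number is not comparable with that of short genes. Ndn, which encodes the MAGE family protein necdin, had a gene-end peak in all 4 lists, 248 bp at day 3 in Flag against 219 in D209N, and 414 at day 7 against 661. Magel2, another MAGE family gene, had 1 peak in Flag day 3 (185 bp) and Flag day 7 (314 bp) and 0 in both D209N lists. In these the nearest peak to either end lay 28439 bp (day 3) and 28103 bp (day 7) away. Both Flag peaks were narrower than the median of their list, and no replicate of either arm can be set beside them. Mkrn3, which encodes a makorin ubiquitin ligase, had 0 peaks in both day 3 lists and 1 in both day 7 lists, of 253 bp in Flag and 499 in D209N. Peg12, a retrogene of the Frat family, had a gene-end peak in all 4 lists.

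The Peg3 cluster encodes zinc finger proteins (Peg3, Zim1) and a ubiquitin peptidase (Usp29). It held 5, 7, 5 and 6 peaks in Flag day 3, Flag day 7, D209N day 3 and D209N day 7. Peg3 and Usp29 begin back to back, and no list had a peak within 1 kb of that point. The nearest, chr7:6727297-6728959, was in all 4 lists, between 1554 and 1621 bp wide and between 1503 and 1545 bp from the Peg3 end. It falls just outside the window, as the Impact peak, 848 to 922 bp from its end, and the Nnat peak, 919 and 968 bp from its end, fall just inside. Zim1 had a gene-end peak in all 4 lists. The Dlk1-Meg3 cluster had 0 peaks in all 4 lists at each of its members, which are Dlk1, encoding a Notch-like membrane protein, the noncoding RNA gene Meg3 and the retrotransposon-derived Rtl1.

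Several members are small genes inside a host gene. Nap1l5, a retrogene inside Herc3, had 0 peaks in both day 3 lists and 1 gene-end peak in both day 7 lists, 262 bp in Flag and 291 in D209N. Zrsr1, a retrogene of a splicing factor inside Commd1, had 2, 4, 2 and 6 peaks in Flag day 3, Flag day 7, D209N day 3 and D209N day 7. Its gene-end peaks, of 260 and 485 bp in Flag and 326 and 433 bp in D209N, were listed at day 7 in both arms and not at day 3. Nnat, which encodes neuronatin and lies inside Blcap, had 1 peak in each day 3 list, 3 in Flag day 7 against 4 in D209N day 7, and its gene-end peak was in both day 7 lists only. That gene-end peak lay near the end opposite the annotated start, and the Nnat promoter window was overlapped in no list. Some peaks counted for a member lay within 1 kb of an end of another gene. Examples are the day 3 peak of Nnat at Blcap, and peaks in all 4 lists at Cct4 for Zrsr1 and at Osbpl1a for Impact.

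Plagl1, which encodes a zinc finger transcription factor, had a gene-end peak in every list but Flag day 3. It was 333 bp wide in D209N day 3, and at day 7 619 bp in Flag against 713 in D209N, while in Flag day 3 the nearest peak lay 17197 bp from an end. The same peak lies within 1 kb of an end of the noncoding gene Hymai. Rasgrf1, a Ras exchange factor gene, had 0 peaks in 3 lists and 1 of 323 bp in D209N day 7, where it overlapped the promoter window printed above. Slc38a4, an amino acid transporter gene, had 1 peak of 216 bp at 697 bp from its end in Flag day 3 and a different one of 274 bp, 13.67 kb from the end, in Flag day 7. It had 0 in both D209N lists. Mest, a hydrolase family gene, had 1, 2, 1 and 1 peaks in Flag day 3, Flag day 7, D209N day 3 and D209N day 7, and one of them lay within 1 kb of an inner start in all 4 lists. Gnas, which encodes the stimulatory G protein alpha subunit and has transcripts of either parental origin, had 5 peaks in every list. Impact, which encodes a regulator of translation, had 5 peaks in both Flag lists and 4 in both D209N lists. All 4 of its merged regions were in every list, and the extra Flag peak came from a region listed as 2 peaks.

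Counted once per cluster, imprinted loci held 52 peaks in Flag day 3, 79 in Flag day 7, 40 in D209N day 3 and 71 in D209N day 7. These were 0.143%, 0.186%, 0.137% and 0.176% of each list. Peaks at the imprinted loci had a median width of 374.5, 339, 365.5 and 433 bp, narrower than the 472, 464, 464 and 489 bp of the whole lists in the same order.

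**Figure D4:**
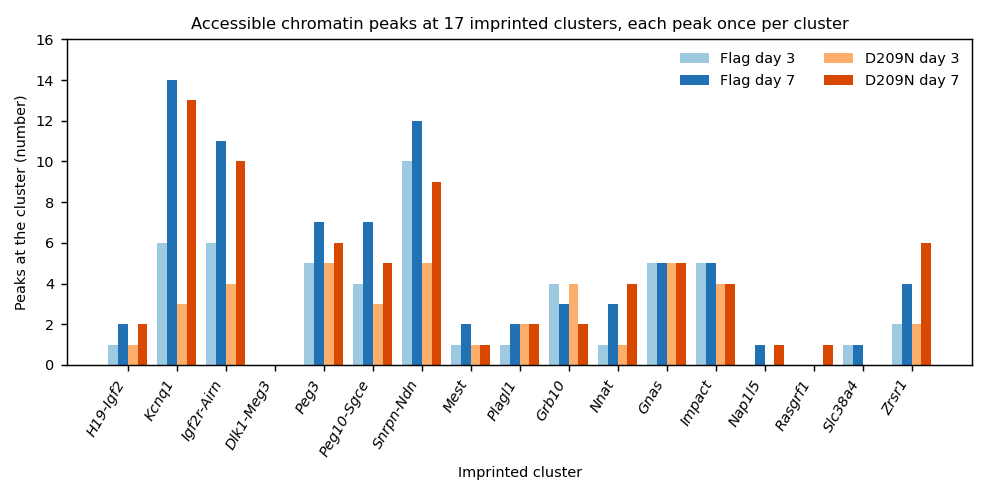
Number of peaks at each of the 17 imprinted clusters, with each peak counted once per cluster; bars are the 4 lists and the axis starts at 0. The Kcnq1 bars reach 14 and 13 in the day 7 lists against 6 and 3 at day 3, Gnas stands at 5 in every list and Dlk1-Meg3 at 0 in every list.

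The first comparison asks how D209N cells differed from Flag cells at day 3. Members with a gene-end peak in Flag only numbered 5 (Cdkn1c, Magel2, Peg10, Sgce and Slc38a4), or 14.7%, against 3.69% of all genes and 5.03% of protein-coding genes. Peg10 and Sgce share their peak. Plagl1 had it in D209N only, where the background was 0.765% and 0.809%. By peaks within 20 kb, 12 members had fewer in D209N (35.3%, against 23.6% and 30.3%) and 3 had more (8.82%, against 6.14% and 7.26%). Those with more were Peg3, Plagl1 and Zim1, and Peg3 and Zim1 counted the same 235 bp peak, chr7:6701383-6701617. With each merged region counted once, an alternative added after the data were seen, 11 had fewer (32.4%, against 23.2% and 29.9%) and 3 more (8.82%, against 5.44% and 6.33%), since Impact had the same number. By peaks, clusters with fewer numbered 6, with more 1 and with the same number 10. Locus peaks stood at 0.769 times the Flag number, where the whole list stood at 0.802 times. With the widest 29189 peaks of each list, which makes the lists equally long, 3 members were Flag only (Cdkn1c, Peg10 and Sgce, against 3.48% of protein-coding genes) and 3 D209N only (Igf2r, Ndn and Plagl1, against 1.67%). Locus peaks then numbered 37 in Flag and 40 in D209N. This setting left the D209N list whole and took every peak narrower than 286 bp from the Flag list, and locus peaks are narrower than the lists, so it does not show whether the arms differed.

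At day 7, only the Flag list held a gene-end peak for Magel2 and Slc22a3 (5.88%, against 1.78% of all genes and 2.02% of protein-coding genes) and only the D209N list for Rasgrf1 (2.94%, against 1.15% and 0.973%). Members with fewer peaks in D209N numbered 12 (35.3%, against 17.5% and 22.9%), and those with more, Ascl2, Nnat, Rasgrf1 and Zrsr1, numbered 4 (11.8%, against 11.5% and 13.5%). By merged regions 10 had fewer (29.4%, against 16.9% and 22.2%) and 3 more (8.82%, against 11.2% and 13.1%), since Impact, Peg10 and Ascl2 then had the same number in both arms. Among clusters, by peaks, 9 had fewer, 3 more and 5 the same. The locus ratio was 0.899 and the list ratio 0.953. At equal list length, which here trims both lists, the loci held 44 peaks in Flag and 45 in D209N. A single peak made the difference at 13 of the 16 members that differed, as at 12 of 15 at day 3, and none has a replicate check. The Magel2 and Rasgrf1 gene-end peaks were absent from the lists of equal length.

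From day 3 to day 7 in Flag cells, the later list alone held a gene-end peak for Mkrn3, Nap1l5, Nnat, Phlda2, Plagl1, Slc22a3 and Zrsr1. These 7 members are 20.6% of the 34, against 4.77% of all genes and 6.23% of protein-coding genes. Slc38a4 alone had the opposite (2.94%, against 0.987% and 0.704%). Of the 20 members without a gene-end peak at day 3, 35.0% (18.1 to 56.7) had one at day 7, against 7.05% of all such genes and 14.1% of such protein-coding genes. More peaks at day 7 were listed at 18 members (52.9%, against 29.7% and 37.5%) and fewer at Grb10 alone (2.94%, against 11.5% and 12.8%). The loci held 1.52 times as many peaks at day 7 and the whole list 1.17 times, and at equal list length the locus ratio was 1.19.

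In D209N cells, the later list alone held a gene-end peak for 9 members (26.5%, against 6.56% of all genes and 9.02% of protein-coding genes), and 0 had the opposite (against 0.485% and 0.320%). They were Cdkn1c, Mkrn3, Nap1l5, Nnat, Peg10, Phlda2, Rasgrf1, Sgce and Zrsr1. Of 24 members without one at day 3, 37.5% (21.2 to 57.3) had one at day 7, against 9.3% of all such genes and 18.7% of such protein-coding genes. Members with more peaks numbered 18 (52.9%, against 34.3% and 43.2%) and with fewer 3, Grb10, Peg3 and Zim1 (8.82%, against 6.55% and 7.47%). For Peg3 and Zim1 the difference was the same peak, listed in D209N day 3 only. The locus ratio was 1.77 and the list ratio 1.39, and at equal list length, which trims the day 7 list only, the locus ratio was 1.12. Flag and D209N cells had in common Mkrn3, Nap1l5, Nnat, Phlda2 and Zrsr1, with the peak in both day 7 lists and neither day 3 list. These 5 are 14.7% of members, against 2.76% of all genes and 3.88% of protein-coding genes. Of these, Nnat had no peak within 1 kb of its annotated start in any list. At equal list length 6 members had the peak at day 7 only in each arm, where the protein-coding shares were 5.44% in Flag and 6.65% in D209N. Phlda2 and Zrsr1 were then the members common to both arms.

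Merging the 4 lists gave 95 regions at imprinted loci among 55274 in the genome. Of these 33 were in all 4 lists (34.7%, 25.9 to 44.7), against 39.4% of all regions. Regions in both day 7 lists only numbered 19 (20%, 13.2 to 29.1), against 12.9%, and regions in both day 3 lists only numbered 2 (2.11%, 0.579 to 7.35), against 4.69%. These 2 lay inside Grb10 (chr11:11960492-11961184) and Sgce (chr6:4722289-4722687). Regions missing from D209N day 3 alone numbered 6 (6.32%, against 8.07%), and those missing from Flag day 3 alone 3 (3.16%, against 2.27%), which were at Plagl1, Usp29 and H19. Regions in both Flag lists and no D209N list numbered 2 (2.11%, against 1.43%), at Magel2 and inside Usp29, and the reverse 0 (against 0.384%).

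Promoter windows of imprinted genes were overlapped by a peak in 13 of 42 cases in Flag day 3 (31.0%, against 38.8% of 32851 windows in the table). The numbers were 16 in Flag day 7 (38.1%, against 42.9%), 12 in D209N day 3 (28.6%, against 35.5%) and 18 in D209N day 7 (42.9%, against 42.5%). Windows overlapped in all 4 lists had a median CpG ratio of 0.73 among members and 0.80 over the table, and windows overlapped in none 0.43 and 0.20. Several windows belong to 1 gene, and some overlap each other, such as 2 of Mest and 2 of Gnas.

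CpG-rich promoters, taken as a ratio of at least 0.6, were overlapped by a peak at a lower share of members than of the table in all 4 lists. The ratio was chosen after the values were seen. Among 20 such member windows a peak overlapped 9 in Flag day 3 (45.0%, against 83.9% of CpG-rich windows in the table), 12 in Flag day 7 (60%, against 90.2%), 10 in D209N day 3 (50.0%, against 77.9%) and 14 in D209N day 7 (70.0%, against 89.6%). By gene, 7, 10, 8 and 12 of 16 members had an overlapped CpG-rich window in Flag day 3, Flag day 7, D209N day 3 and D209N day 7. Over 10444 genes the shares were 84.7%, 90.8%, 79.0% and 90.1%. Windows below 0.6 were overlapped at 18.2%, 18.2%, 9.09% and 18.2% of 22 member windows, against 13.4%, 16.2%, 11.4% and 15.9% of the table, so the member share was higher in 3 lists and lower in D209N day 3. Of the genes with CpG-rich windows, Ascl2, Igf2, Meg3 and Nnat had none overlapped in any list (25.0% of the 16, against 7.97%). The member share lay under that of the table in each list with the ratio at 0.5 or 0.7 and with a peak within 1 kb of the start, by 6.8 to 42.8 percentage points. Whether methylation or the number of open chromosomes has a part in this was not tested.

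**Figure D5:**
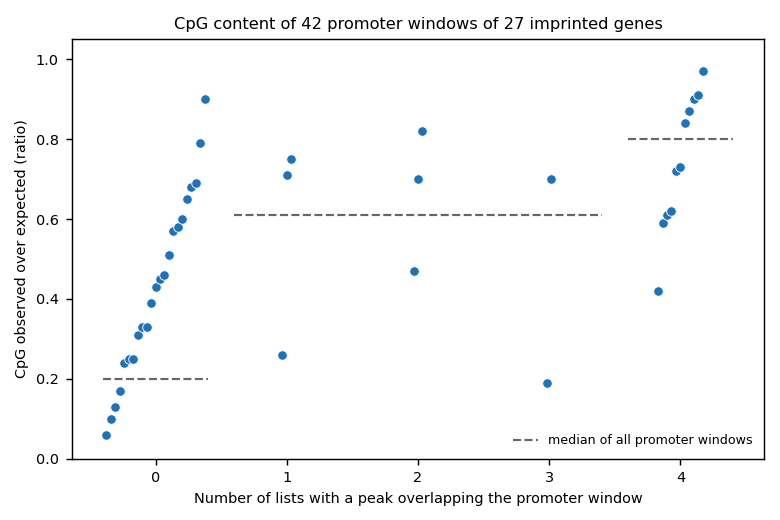
Observed over expected CpG ratio of 42 promoter windows from 27 imprinted genes, against the number of lists (0 to 4) in which a peak overlaps the window. Each point is a window and dashed lines are the medians of all windows of the table (0.20 for none, 0.61 for 1 to 3 lists, 0.80 for 4 lists); several member windows above 0.6 stand at 0 lists.

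The ZFP57 hexamer TGCCGC, searched on both strands, was found in 11 of the 42 windows (26.2%), against 11.6% of the table. The hexamer holds a CpG, and the median CpG ratio was 0.58 over member windows and 0.38 over the table, so the shares are not matched for CpG content. The windows belonged to Grb10, Igf2, Meg3, Mest, Nap1l5, Nnat, Plagl1, Slc22a2, Snrpn and Zim1, and those of Mest overlap. The YY1 core GCCATNTT was in 2 windows (4.76%, against 6.05%), of Mkrn3 and Slc38a4. A CTCF core motif of 14 letters was in 0 windows, and in 12 of the table (0.0365%). These matches describe letters in the windows and not binding.

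Other imprinted genes were a further list of 33, of which 32 were in the gene table. Some contain members and share their peaks, such as Blcap with Nnat, Commd1 with Zrsr1, Herc3 with Nap1l5 and Snhg14 with Snrpn. Others overlap each other, such as H13 and Mcts2, so the counts are not independent. Gene-end peaks stood at 17 of the 32 in each day 3 list (53.1%), 21 in Flag day 7 (65.6%) and 18 in D209N day 7 (56.2%). The shares of protein-coding genes were 55.9% and 51.7% at day 3 and 61.5% and 60.4% at day 7, Flag first. Of the 32, 16 had it in all 4 lists (50.0%, against 50.6% of protein-coding genes) and 11 in none (34.4%, against 37.0%). It differed at 5 (15.6%, against 12.4%), namely Dio3, Htr2a, Kcnk9, Klf14 and Mirg. Dio3, a deiodinase gene of the Dlk1 domain, Klf14, a Kruppel-like factor gene, and Htr2a, a serotonin receptor gene, had it in Flag day 7 only. Kcnk9, a potassium channel gene, had it in every list but Flag day 3, and Mirg, a microRNA host, in every list but D209N day 3. At day 3, 14 had fewer peaks in D209N (43.8%, against 30.3% of protein-coding genes) and 2 more (6.25%, against 7.26%). At day 7, 11 had fewer (34.4%, against 22.9%) and 5 more (15.6%, against 13.5%). From day 3 to day 7 in Flag, 15 had more (46.9%, against 37.5%) and 7 fewer (21.9%, against 12.8%). In D209N 16 had more (50.0%, against 43.2%) and 4 fewer (12.5%, against 7.47%). A gene-end peak at day 7 only stood at 4 of these genes in Flag (12.5%, against 6.23% of protein-coding genes and 20.6% of members). In D209N it stood at 1 (3.12%, against 9.02% and 26.5%). A gene-end peak at day 3 only stood at 0 in both arms (against 0.704% of protein-coding genes in Flag and 0.320% in D209N). Among 9 imprint-maintenance genes, Ctcf, Smchd1, Trim28, Uhrf1 and Zfp445 had a gene-end peak in all 4 lists (55.6%, against 50.6% of protein-coding genes). Ctcfl, Dnmt1, Dppa3 and Zfp57 had it in none (44.4%, against 37.0%), and their inner starts were not examined. Dnmt1, Dppa3 and Zfp57 had peaks within 20 kb in every list, and Ctcfl in every list but D209N day 3.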

How the data were processed

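ATAC-seq peaks from reprogramming mouse fibroblasts were available as 1 deposited list for each of 4 groups, without scores, signal or reads. The authors' values are start and end positions in base pairs. Per the submitters' processing notes the tools were CASAVA and Bowtie2 2.3.2 and the builds mm10 and GRCm38.p5. Not given in the sources used here are the peak caller, its threshold, and whether a list comes from 1 replicate or both, all of which can set which weak peaks are listed. All interval names in the deposited lists carry the label of replicate 1.

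Peaks were intersected (1 bp or more) with genes of the RefSeq GRCm38.p6 table, whose main chromosomes are those of the files' build. Mitochondrial intervals (3 per list) were left out. Members and gene lists were chosen with earlier results of these data known. Members were named by rule where their gene-end state or peak number differed between lists or they had no peak, and other imprinted genes where the gene-end state differed. The remaining members, the imprint-maintenance genes, Atp10a and Ube3a were named outside it. Nespas was not found in the table. Shares have Wilson 95% intervals. Counting was tested on simulated data. Alternatives were other windows, annotated starts, wider peaks, lists of equal length and, chosen after seeing the data, other CpG limits and merged regions counted once. Python 3.11.15, numpy 2.4.6, pandas 2.3.3, scipy 1.17.1 and matplotlib 3.10.9 were used. DNA-RNA hybrid, RNA and other libraries of the series were not used here.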

Additional observations from a re-analysis of the deposited data

How the results depend on the processing

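No paired analysis was possible because each group has 1 list, and for the same reason no replicate could be left out. Among the values recomputed for the 4 lists and comparisons, 64 stayed within 1.5 times the value reported, and the cause of the other 20 was not tested beyond the smaller number of peaks that the width settings keep. With peaks at or above the median width of their list, gene-end members numbered 5 and 11 in Flag at day 3 and day 7, and 1 and 13 in D209N. Locus peaks then numbered 23 and 28 in Flag at day 3 and day 7, and 16 and 31 in D209N. In that setting 0 members were D209N only at day 3, 4 were D209N only at day 7 and 0 had the peak at day 3 only in Flag. With lists of equal length, which left D209N day 3 whole and took the narrow peaks of the other 3, the locus peaks numbered 44 (Flag) and 45 (D209N) at day 7. Of the 34 members 3 were then D209N only and 3 Flag only at day 3, against 1.67% and 3.48% of protein-coding genes. At day 7 2 were D209N only and 1 Flag only, against 1.55% and 1.88%. A gene-end window of 2 kb gave 3 Flag only at day 3 and 2 D209N only at day 7. Annotated starts gave 2 Flag only at day 3, and a window of 0.5 kb gave 0 with the peak at day 3 only in Flag. No share over all genes was taken for the median width, the other windows or annotated starts. Counts of members under those settings therefore cannot be read as particular to imprinted genes. Peaks without scores cannot show how far a locus lies from the threshold.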

Other observations

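Beside the members, Atp10a, a phospholipid flippase gene near Ube3a, had 13 peaks at day 3 in Flag, 10 at day 3 in D209N and 8 in both day 7 lists, so that the day 7 lists held fewer. Ube3a, the ubiquitin ligase gene of Angelman syndrome, had 4 at day 3 in Flag, 2 at day 3 in D209N and 1 in both day 7 lists, with a gene-end peak in every list. Clusters of members with more peaks at day 7 numbered 11 of 17 in Flag and 10 in D209N. In Flag, 7 of the 32 other imprinted genes had fewer peaks at day 7 (21.9%, against 12.8% of protein-coding genes). In D209N 4 did (12.5%, against 7.47%), and Atp10a and Ube3a were among them in each arm. Both genes were picked after their values were seen, and have no replicate check.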
